A study of Mus musculus with 20 samples.

Results

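The neurotrophins and their receptors were examined in the mouse hippocampus as 5 genes, Bdnf, Ntf3, Ntrk2, Ntrk3 and Ngfr, chosen by gene name among the 25190 genes of the count table. The 5 genes were counted in all 20 libraries. The study infused small RNAs (sRNAs) purified from human post-mortem hippocampus into the hippocampus of mice and asked whether sRNAs from patients with schizophrenia change cognition and gene expression. The mice were wild-type males of the strain C57BL/6JOlaHsd, 4 months old by the sample labels, and 5 mice formed each group. Vehicle mice received artificial cerebrospinal fluid without sRNAs. Control mice received sRNAs pooled from 9 individuals without a psychiatric diagnosis, whereas the sRNAs given to Pool 1 mice came from 10 patients and those given to Pool 2 mice from another 10. All 4 groups, Vehicle included, carried bilateral cannulas, received 2 bilateral infusions of 2 µL at an interval of 48 hours, with sRNAs at 0.24 µg/µL in the 3 sRNA groups, and went through behavioural tests before the tissue was taken 24 hours after the last one. Each sRNA group therefore stands for 1 pool of donors, and the 5 mice of a group do not sample other donors.

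Neurotrophins are secreted growth factors that are made as precursors and bind as dimers to receptors on neurons and glia. Brain-derived neurotrophic factor (BDNF, gene Bdnf) binds the receptor tyrosine kinase TrkB (Ntrk2), and neurotrophin-3 (Ntf3) binds mainly TrkC (Ntrk3). The p75 receptor (Ngfr) binds all neurotrophins and, together with sortilin, their precursors. In the hippocampus, BDNF is produced by excitatory neurons in an activity-dependent way and is known for its part in synaptic plasticity, neurotrophin-3 is mainly a product of dentate granule cells, and TrkB is made by neurons in a full-length form and by astrocytes largely in a form that lacks the kinase.

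In the GRCm38 assembly, Bdnf lies on chromosome 2 from 109674700 to 109727007 on the plus strand, and its 11 annotated transcripts share the coding exon but start at different 5′ exons. Ntf3 lies on chromosome 6 from 126101412 to 126166910 on the minus strand, with 3 transcripts. Ntrk2 lies on chromosome 13 from 58806569 to 59133970 on the plus strand, Ntrk3 on chromosome 7 from 78175959 to 78738012 on the minus strand, and Ngfr on chromosome 11 from 95568818 to 95587735 on the minus strand. Counts were summed per gene, so the starts of Bdnf, or the full-length and truncated receptors, were not separated. The coding transcripts of Ntrk2 encode proteins of 466 to 821 amino acids and those of Ntrk3 proteins of 82 to 864 amino acids. The gene Gm45346 overlaps Bdnf on the opposite strand and had 0 to 10 counts per library, against 871 to 1752 for Bdnf.

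To show what the gene-level count of the ligands adds up, 4 stretches of 150 bases directly upstream of an annotated transcript start are given from RefSeq sequence of GRCm38.p6, 5′ to 3′ in the direction of transcription. Both Bdnf stretches belong to different starts of 1 gene, the Ntf3 stretch lies upstream of the other ligand, and the Ntrk2 stretch upstream of the most abundant member. Capitals mark the letters CGTCA, the core of the cyclic AMP response element bound by CREB, searched on both strands.
Bdnf-201, chr2:109674550-109674699, plus strand: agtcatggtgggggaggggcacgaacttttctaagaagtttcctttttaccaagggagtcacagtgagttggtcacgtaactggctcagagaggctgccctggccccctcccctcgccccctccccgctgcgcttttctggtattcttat
Bdnf-209, chr2:109692286-109692435, plus strand: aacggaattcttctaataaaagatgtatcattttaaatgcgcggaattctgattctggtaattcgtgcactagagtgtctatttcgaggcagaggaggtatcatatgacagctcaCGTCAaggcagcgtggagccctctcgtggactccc
Ntf3-203, chr6:126164961-126165110, minus strand: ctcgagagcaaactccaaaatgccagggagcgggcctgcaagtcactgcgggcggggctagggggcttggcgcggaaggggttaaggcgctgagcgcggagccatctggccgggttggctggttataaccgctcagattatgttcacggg
Ntrk2-207, chr13:58806419-58806568, plus strand: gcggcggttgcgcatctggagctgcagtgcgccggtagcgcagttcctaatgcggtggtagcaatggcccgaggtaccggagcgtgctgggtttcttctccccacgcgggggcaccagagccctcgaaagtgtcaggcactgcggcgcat

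Of the 11 upstream stretches found for the members, 7 of Bdnf, 2 of Ntf3 and 1 each of Ntrk2 and Ngfr, the letters CGTCA occurred only in that of Bdnf-209. There they are the end of the letters TCACGTCA, so the matches overlap. Among 32851 mouse upstream stretches of the same length, 13.3% held CGTCA on either strand and 0.24% held TCACGTCA. A match in these letters is a description of the sequence and does not show binding.

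The tissue carried hippocampal markers. All 8 of the hippocampal genes listed for this check were detected, among them Prox1 of dentate granule cells at 45.3 to 209 CPM (counts scaled to a common library size with TMM factors) and Wfs1 of CA1 pyramidal cells at 102 to 403 CPM. The libraries held 20588280 to 25543939 counts, so that 3 counts, taken as the floor, correspond to 0.117 to 0.146 CPM. Differences were tested in 1 edgeR quasi-likelihood fit of all 25190 genes and 20 libraries, and a gene was called where its log2 fold change was 0.3 or more in either direction and its p-value before adjustment was under 0.05. These are the fold and p thresholds of the study, which also left out genes under a mean normalized count of 10. With that filter, applied here as an alternative, 402 genes were called between Pool 1 and Control in place of 876, and 0 of the 5 members in any comparison. Exact permutation tests compared log2 CPM between 5 and 5 mice, two-sided, and cannot go below p = 0.00794. At an adjusted p-value under 0.05, 0 of 25190 genes passed in each of the 4 comparisons, whereas 1314 to 2146 genes per comparison had an unadjusted p-value under 0.05. The library Pool 2 replicate 1 stood apart, with a summed level of 8 microglial genes of 1098 CPM, against 373 to 582 CPM in the other 19 libraries. The sum of 6 choroid plexus genes ran from 93.1 to 8959 CPM. It was highest in Vehicle replicate 4, followed by Control replicate 3 at 2285 CPM and Pool 2 replicate 3 at 1486 CPM. Between Control and Vehicle, 3 of these 6 genes were called lower, where 5.10% of all genes were called in either direction.

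Scaled to the length of their exons, TrkB was the most abundant member. Ntrk2 had a mean of 29.1 CPM per kb over the 20 libraries, and its group means ranged from 27.7 ± 1.95 CPM per kb in Control (SD, n = 5) to 30.3 ± 3.81 in Vehicle (SD, n = 5). Ntrk3 and Bdnf followed at 8.58 and 8.48 CPM per kb. On this scale these neighbours did not differ beyond their spread, since the SD within groups was 1.16 to 2.52 CPM per kb for Ntrk3 and 1.15 to 1.49 for Bdnf. In CPM, Ntrk3 had a mean of 259 and Bdnf of 52.7, so their closeness depends on the length used. That length joins all annotated exons, of 20 transcripts for Ntrk3 and 11 for Bdnf. Ntf3 came next at 5.09 CPM per kb, with group means of 4.68 to 6.21, below the group means of Bdnf at 7.89 to 9.31. Ngfr was the lowest at 0.396 CPM per kb. Its libraries held 17 to 67 counts, above the floor of 3.

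**Figure D1:**
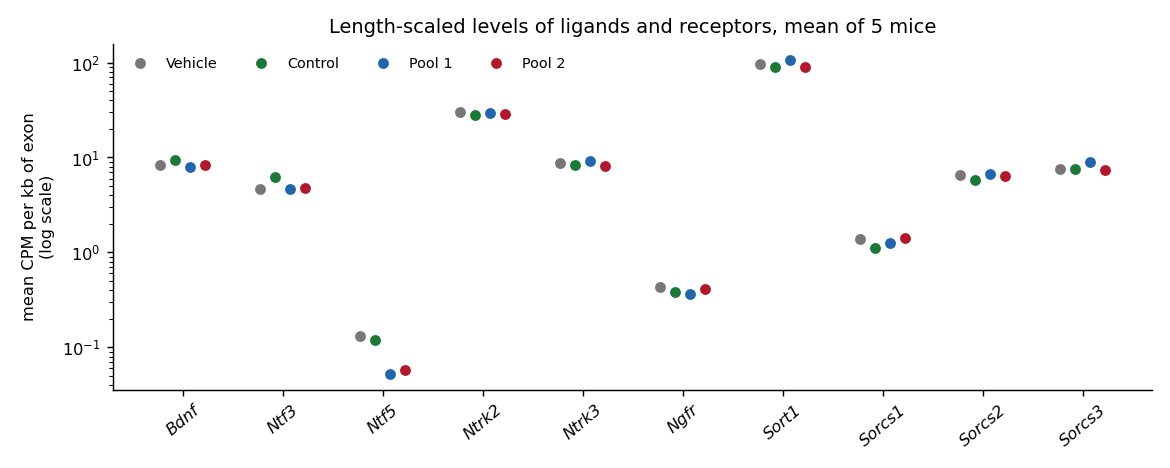
Mean level in CPM per kb of exon (log axis) of Bdnf, Ntf3, Ntf5, Ntrk2, Ntrk3, Ngfr and the sortilin family, with 1 point per group of 5 mice. The sortilin gene Sort1 and Ntrk2 lie at the top, and Ntf5 lies at the bottom, below Ngfr.

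The members differed in how much they varied between mice. The biological coefficient of variation between mice of a group, estimated by edgeR, was 10.4% for Ntrk2, 15% for Bdnf, 20.5% for Ntrk3, 22.7% for Ntf3 and 37.6% for Ngfr. The median over the 14797 genes with a mean of at least 1 CPM was 14.2%. Ntrk2 was thus below this median and Ntrk3, which is also an abundant mRNA, was above it.

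Bdnf, the activity-regulated ligand, was measured at 36.7, 55.2, 50.1, 61.3 and 55.2 CPM in the Vehicle libraries, replicates 1 to 5. The Control libraries had 50.6, 60.3, 59.6, 69.7 and 49.3 CPM. The Pool 1 libraries had 49.4, 53.1, 54.1, 52.0 and 36.6 CPM, and the Pool 2 libraries 42.3, 59.6, 59.7, 50.5 and 49.1 CPM. The groups overlapped, and the lowest values were Vehicle replicate 1 and Pool 1 replicate 5. The mean was 57.9 ± 8.27 CPM in Control (SD, n = 5), 49.0 ± 7.16 in Pool 1, 52.2 ± 7.46 in Pool 2 and 51.7 ± 9.28 in Vehicle. The log2 fold change was −0.24 between Pool 1 and Control (SE 0.13, edgeR p = 0.0819, adjusted p = 0.917, exact permutation p = 0.119) and −0.15 between Pool 2 and Control (SE 0.13, edgeR p = 0.272, adjusted p = 0.858, exact permutation p = 0.270), neither of which was called.

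Ntf3, the TrkC ligand, was at 7.12, 5.93, 7.31, 7.28 and 12.6 CPM in Vehicle replicates 1 to 5. The Control libraries had 12.4, 10.3, 9.90, 11.6 and 8.98 CPM. The Pool 1 libraries had 11.5, 4.30, 8.44, 7.58 and 8.26 CPM, and the Pool 2 libraries 5.90, 8.68, 8.92, 8.30 and 8.98 CPM. In both Pool 1 and Pool 2, 4 of 5 libraries were below every Control library. The exceptions were Pool 1 replicate 1 at 11.5 CPM and Pool 2 replicate 5, which equalled the lowest Control library to 3 digits. Vehicle replicate 5, at 12.6 CPM, was the highest of all 20 libraries, and the other Vehicle libraries were below every Control library.

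The mean level of Ntf3 was therefore 10.6 ± 1.37 CPM in Control (SD, n = 5), against 8.02 ± 2.56 in Pool 1, 8.16 ± 1.29 in Pool 2 and 8.05 ± 2.61 in Vehicle. The log2 fold change was −0.41 for Pool 1 against Control (SE 0.20, 95% confidence interval −0.83 to 0.02, edgeR p = 0.0587, adjusted p = 0.917, exact permutation p = 0.0635). It was −0.38 for Pool 2 against Control (SE 0.20, interval −0.81 to 0.04, edgeR p = 0.0737, adjusted p = 0.691, exact permutation p = 0.0159). It was 0.40 for Control against Vehicle (SE 0.20, interval −0.02 to 0.83, edgeR p = 0.0605, adjusted p = 0.751, exact permutation p = 0.0714). These 3 comparisons use the same 5 Control libraries, and none was called. They lie next to the threshold and depend on single libraries. Without Pool 1 replicate 1 the change of Pool 1 against Control was −0.57, and without Vehicle replicate 5 that of Control against Vehicle was 0.62, and both were then called. Without Control replicate 5 both were called as well, at −0.46 and 0.46. For Pool 2 against Control, a fit of these 2 groups alone gave −0.41 and a call, whereas without Pool 2 replicate 1 and Vehicle replicate 4 the change was −0.29 and was not called.

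In bulk tissue, fewer cells that make a transcript and less RNA per cell cannot be told apart. The summed level of 8 dentate granule cell genes was 322 to 923 CPM in Control, 314 to 913 CPM in Pool 1 and 533 to 820 CPM in Pool 2, and 0 of the 8 were called in either comparison. Between Pool 1 and Control, 0 of the 8 had a log2 fold change above 0 and their median was −0.26, beside −0.41 for Ntf3. Between Pool 2 and Control, 7 of the 8 were above 0 and their median was 0.07, beside −0.38 for Ntf3. Pool 1 replicate 1 had the highest Ntf3 level of its group and also the highest dentate sum, 913 CPM, but among Control libraries replicate 1 had the lowest dentate sum, 322 CPM, with the highest Ntf3 level, 12.4 CPM. The part of the dentate share in the Ntf3 values was not tested.

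**Figure D2:**
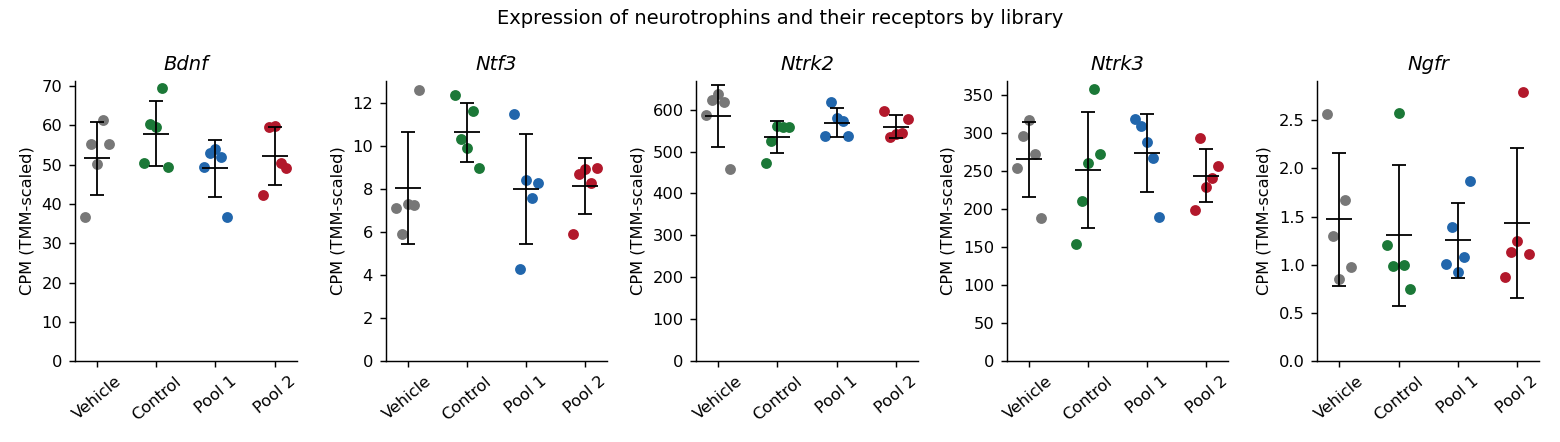
Level of each member in CPM (linear axis from 0), with 1 point per library ordered by replicate number within each group and the mean ± SD of 5 mice in black. The Control points of Ntf3 lie between 8.98 and 12.4 CPM, and the groups overlap in all 5 genes.

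Ntrk2, which encodes TrkB, was at 586, 624, 638, 618 and 458 CPM in Vehicle replicates 1 to 5. The Control libraries had 474, 525, 562, 558 and 559 CPM. The Pool 1 libraries had 537, 618, 580, 572 and 538 CPM and the Pool 2 libraries 597, 534, 542, 545 and 578 CPM. Only Vehicle replicate 5 and Control replicate 1 were below 500, and the groups overlapped. The log2 fold change was 0.09 for Pool 1 against Control (interval −0.09 to 0.27) and 0.06 for Pool 2 against Control (interval −0.11 to 0.24), and both intervals stayed under the 0.3 of the threshold. Control against Vehicle gave −0.13 (interval −0.31 to 0.05), and −0.20 without Vehicle replicate 5, short of the 0.3 required.

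Ntrk3, which encodes TrkC, spread more widely. It was at 254, 296, 318, 272 and 189 CPM in Vehicle, at 154, 211, 261, 358 and 273 CPM in Control, at 318, 309, 288, 267 and 190 CPM in Pool 1 and at 199, 294, 230, 241 and 257 CPM in Pool 2, replicates 1 to 5. The lowest and the highest of all 20 libraries were both in Control, replicates 1 and 4. The log2 fold change was 0.13 for Pool 1 against Control (interval −0.26 to 0.51), −0.04 for Pool 2 against Control (interval −0.43 to 0.34) and −0.08 for Control against Vehicle (interval −0.47 to 0.31). Each interval reached past 0.3 in at least 1 direction, so a change of that size could not be told from none.

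Ngfr, which encodes the p75 receptor, was at 2.57, 1.30, 0.85, 1.67 and 0.98 CPM in Vehicle and at 1.21, 0.99, 2.58, 0.99 and 0.75 CPM in Control, replicates 1 to 5. The Pool 1 libraries had 1.01, 1.39, 0.92, 1.08 and 1.87 CPM and the Pool 2 libraries 0.87, 1.13, 1.25, 2.80 and 1.12 CPM. A single library at or above 2.57 CPM stood out in Vehicle, Control and Pool 2. With log2 fold changes from −0.18 to 0.19 and SEs of 0.36 to 0.37 over the 4 comparisons, no difference was detected, and the direction changed when single libraries were left out. Of cells that carry p75 outside the hippocampus, 3 genes of septal cholinergic neurons summed to 0.388 to 7.27 CPM per library, beside 0.75 to 2.80 CPM for Ngfr itself. The highest septal sum was in Vehicle replicate 2, with Ngfr at 1.30 CPM. Ngfr was highest in Pool 2 replicate 4, Control replicate 3 and Vehicle replicate 1, with septal sums of 0.918, 1.33 and 1.35 CPM. The sum of 8 leptomeningeal genes was 136 CPM in Pool 2 replicate 4, the highest of all 20 libraries. In Pool 1 it was highest in replicate 5, 76.7 CPM, which also had the highest Ngfr level of that group. In Control and Vehicle it was highest in replicates 4 and 5, 54.3 and 71.9 CPM, and not where Ngfr was highest. The part of septal or leptomeningeal cells in the Ngfr values was not tested.

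Over the 4 comparisons, 0 of the 5 members were called, and 0 had an unadjusted p-value under 0.05 in edgeR. DESeq2 also called 0 in each comparison. Among all genes, 3.48% were called between Pool 1 and Control, 6.22% between Pool 2 and Control, 6.82% between Pool 2 and Pool 1 and 5.10% between Control and Vehicle. By direction, these were 374 higher and 502 lower, 1311 higher and 255 lower, 1426 higher and 292 lower, and 427 higher and 858 lower. Most calls in Pool 2, against Control and against Pool 1, were thus higher. None of the 5 members had groups without overlap, as did 0.861%, 1.05%, 1.41% and 0.607% of all genes in the same order of comparisons. Between the pools, the log2 fold change of Pool 2 against Pool 1 was 0.09 for Bdnf, 0.02 for Ntf3, −0.02 for Ntrk2, −0.17 for Ntrk3 and 0.19 for Ngfr.

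**Figure D3:**
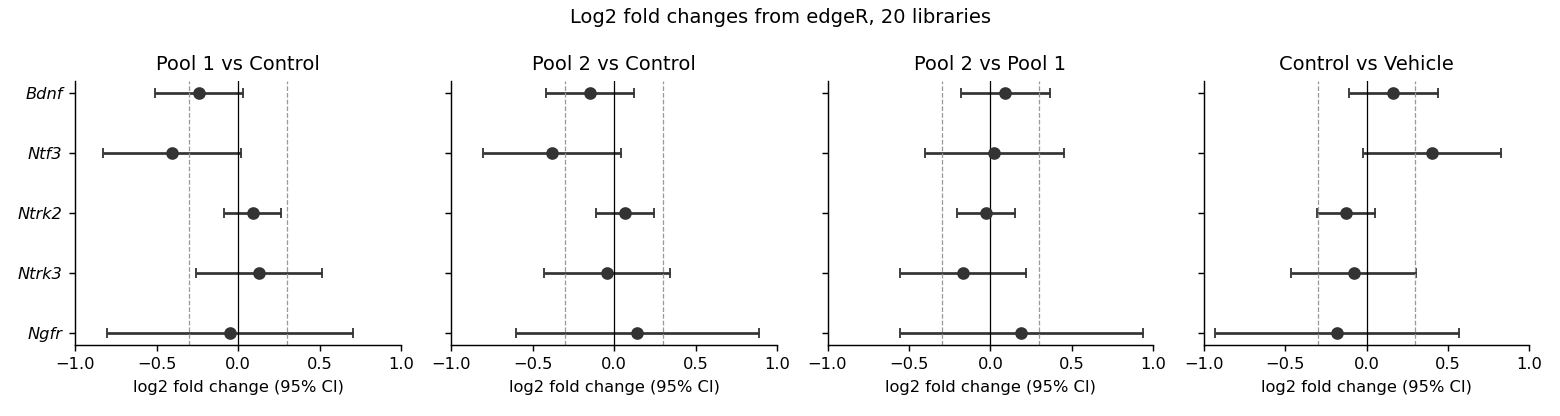
Log2 fold change with its 95% confidence interval (edgeR, 20 libraries) of the 5 members in the 4 comparisons, with dashed lines at the 0.3 of the threshold in both directions. All intervals include 0, the intervals of Ntrk2 are the narrowest and those of Ngfr the widest.

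The wide spread of Ntrk3 followed a property of the libraries. For each library, the mean deviation of log2 CPM from the 20-library average was taken over the fifth of genes with the longest summed exons, at least 7632 bases, and that over the fifth with the shortest, at most 2437 bases, was subtracted. This length index ranged from −0.42 in Control replicate 1 to 0.23 in Pool 1 replicate 1, so that long transcripts were low against short ones in some libraries and high in others. Ntrk3 is among the longest genes, with 30170 bases of exon, longer than 99.8% of the genes with at least 1 CPM. Its log2 CPM had a Pearson r of 0.96 with the length index over the 20 libraries (Spearman's rho 0.94, r = 0.94 without the 2 libraries farthest from the median index, and r = 0.97 within groups). Of the 14797 genes, 99.9% had a lower r. The points share libraries and the normalization, and Ntrk3 is itself 1 of the long genes that enter the index.

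The other members followed the index less. Ntrk2, with 19292 bases, had r = 0.63 (rho 0.44), Bdnf, with 6217 bases, r = 0.26 (rho 0.20), Ngfr, with 3446 bases, r = 0.00204 (rho 0.00451) and Ntf3, with 1714 bases, r = −0.34 (rho −0.24). The index overlapped between groups, with means of 0.07 ± 0.19 in Vehicle (SD, n = 5), −0.08 ± 0.25 in Control, 0.05 ± 0.23 in Pool 1 and −0.04 ± 0.17 in Pool 2. The libraries lowest in Control, Pool 1 and Vehicle were replicates 1, 5 and 5. The study gives the RNA integrity number of the mice as an average only, so its part in the index was not tested. In Control, Pool 1 and Pool 2, the libraries with the highest and lowest index also had the highest and lowest dentate sums. These sums were 923 and 322, 913 and 314, and 820 and 533 CPM. In Vehicle, the dentate sum was highest in replicate 1, 633 CPM, and lowest in replicate 4, 424 CPM, but the index in replicates 2 and 5. The part of the dentate share in the index and in Ntrk3 was not tested.

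With the length index as a covariate, an alternative added after the data were seen, the SE of the Ntrk3 log2 fold change between Pool 1 and Control fell from 0.19 to 0.06. The fold change itself moved from 0.13 to −0.04 (interval −0.17 to 0.10). For Pool 2 against Control it was −0.05 (interval −0.18 to 0.08) and for Control against Vehicle 0.11 (interval −0.02 to 0.24). In these fits the intervals of Ntrk3 lay within 0.3 of 0. The covariate comes from the same libraries, includes Ntrk3 and has r = 0.96 with it, so the smaller SE follows from its making. A group difference that Ntrk3 shares with other long genes would be taken up by the covariate, and these intervals do not bound it. The fold change of Bdnf moved farther from 0. Between Pool 1 and Control it was −0.24 without the covariate and −0.30 with it (interval −0.57 to −0.03, edgeR adjusted p = 0.636), which is a call, at the edge of the threshold by size. Ntf3 stayed uncalled at −0.35 for Pool 1 (interval −0.79 to 0.09) and −0.36 for Pool 2 (interval −0.79 to 0.06) against Control.

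**Figure D4:**
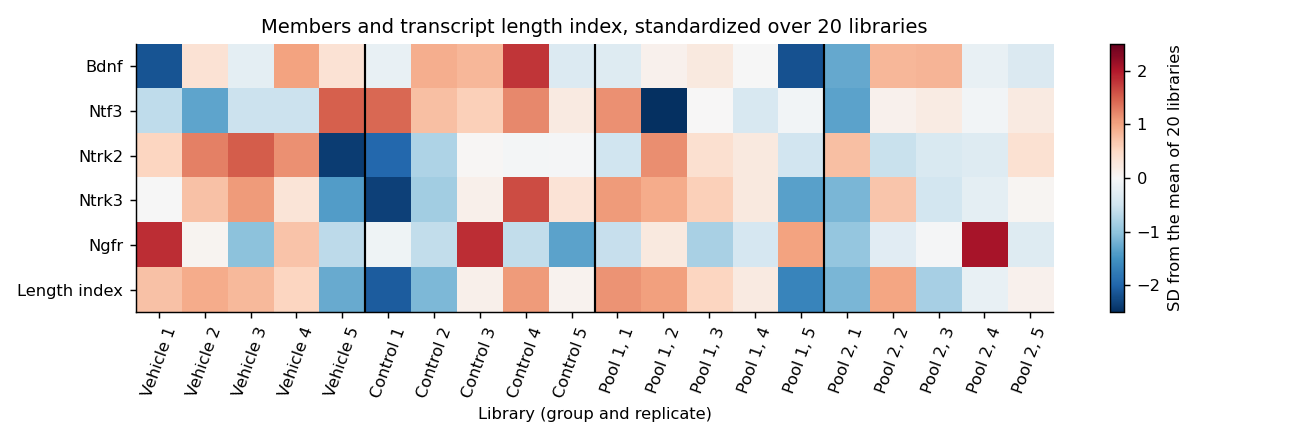
Log2 CPM of the 5 members and the transcript length index, each standardized over the 20 libraries (colour: SD from the mean), with libraries in columns and black lines between groups. The row of Ntrk3 has nearly the same colours as the length index, r = 0.96, and the rows of Ntf3 and Ntrk2 have opposite colours in most libraries, r = −0.79.

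Between members, the clearest relation over the 20 libraries was an opposite one of Ntf3 and Ntrk2, with r = −0.79 (rho −0.80, r = −0.77 without the 2 farthest libraries and r = −0.77 within groups). Vehicle replicate 5 had the highest Ntf3 and the lowest Ntrk2 level of all libraries, and Pool 1 replicate 2, with the lowest Ntf3 level, had 618 CPM of Ntrk2, the highest of its group. Ntrk2 and Ntrk3 had r = 0.63, but 0.33 without the 2 farthest libraries. The 8 other pairs had r between −0.27 and 0.36, among them Bdnf with its receptor Ntrk2 at −0.08 and Ntf3 with its receptor Ntrk3 at −0.27. These relations are across mice in bulk tissue and share the scaling of each library.

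The genes whose log2 CPM was most like that of a member over the 20 libraries were searched among the 14797 genes with at least 1 CPM. For Bdnf they were Epha7 (r = 0.82), an ephrin receptor, Ptgs2 (r = 0.81), the activity-induced cyclooxygenase, and Rbfox1 (r = 0.80), a neuronal splicing regulator. By rank, Ptgs2 was the closest of the 3 to Bdnf, with rho 0.84 against 0.66 and 0.59. For Ntf3 they were Snx24 (r = 0.85), Krt10 (r = 0.83) and Wdr61 (r = 0.83). For Ntrk2 they were Sash1 (r = 0.91), Xylt1 (r = 0.87) and Fat1 (r = 0.87), a giant cadherin, all with longer exons than 84.9% or more of the genes. For Ntrk3 they were Csmd3 (r = 0.98), Tanc2 (r = 0.98) and Gm43268 (r = 0.96), the first pair of which were longer than 98.1% or more of the genes. For Ngfr, the least abundant member, Pls1, Klhl4 and A330049N07Rik reached r = 0.76, 0.76 and 0.73.

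The NT-4 gene, Ntf5, which encodes another TrkB ligand, had 1 to 21 counts per library and was not called in any comparison. Its summed counts over 5 libraries were 40 in Vehicle, 37 in Control, 16 in Pool 1 and 18 in Pool 2. It was called between Pool 1 and Control and between Pool 2 and Control in the fits of only the groups compared and of 18 libraries, and at these counts no fold change is given.

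Sort1, which encodes sortilin, the co-receptor of p75 for precursor neurotrophins and a sorting receptor for BDNF, was the gene with separated groups among the sortilin family. It was at 575, 673, 717, 769 and 663 CPM in Control replicates 1 to 5 and at 771, 858, 843, 802 and 777 CPM in Pool 1. The Pool 2 libraries had 603, 738, 718, 665 and 707 CPM and the Vehicle libraries 689, 803, 798, 796 and 598 CPM. Every Pool 1 library was above every Control and every Pool 2 library, while Vehicle overlapped Pool 1. Among all genes, 0.861% had groups without overlap between Pool 1 and Control and 1.41% between Pool 2 and Pool 1. Groups without overlap always give the lowest possible exact permutation p-value, so that value adds nothing to the separation itself. The log2 fold change was 0.25 between Pool 1 and Control (SE 0.09, edgeR p = 0.0114, adjusted p = 0.917, exact permutation p = 0.00794) and −0.24 between Pool 2 and Pool 1 (SE 0.09, edgeR p = 0.0164, adjusted p = 0.447, exact permutation p = 0.00794). Both were under the 0.3 of the threshold, and without Pool 2 replicate 1 the second was −0.20. Sort1 also followed the length index (r = 0.70), and with the index as a covariate its changes were 0.20 (interval 0.05 to 0.35) and −0.20 (interval −0.34 to −0.05). Sorcs1, Sorcs2 and Sorcs3, the related sorting receptors, were at 6.39 to 18.3, 41.1 to 68.8 and 40.1 to 88.0 CPM and were not called.

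Around the members, 91 genes of neurotrophin processing and signalling were listed, and 87 of them were in the table. Between Pool 1 and Control, 1 was higher and 0 lower (1.15%), between Pool 2 and Control 1 was higher and 0 lower (1.15%), between Pool 2 and Pool 1 2 were higher and 1 lower (3.45%), and between Control and Vehicle 2 were higher and 1 lower (3.45%). These shares were below those of all genes given above. The median log2 fold change of the 87 genes was 0.01, −0.01, −0.02 and 0.01, against −0.01, 0.00, 0.02 and −0.01 over all genes. No listed gene had an adjusted p-value under 0.05, and the smallest was 0.197.

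Among the 42 Trk adaptors and signalling genes, Shc1, which encodes an adaptor that couples Trk receptors to the Ras pathway, was the only one called in the pools. It was at 10.3, 10.1, 8.88, 9.10 and 9.60 CPM in Control replicates 1 to 5, at 8.37, 8.65, 8.93, 7.71 and 10.9 CPM in Pool 1 and at 14.6, 10.8, 11.8, 12.2 and 11.7 CPM in Pool 2. Every Pool 2 library was above every Control library, and only Pool 1 replicate 5 reached the lowest Pool 2 level. The log2 fold change of Shc1 was 0.35 for Pool 2 against Control (SE 0.11, edgeR p = 0.00321, adjusted p = 0.479, exact permutation p = 0.00794) and 0.45 for Pool 2 against Pool 1 (SE 0.11, edgeR p = 0.000256, adjusted p = 0.197, exact permutation p = 0.0159). Without Pool 2 replicate 1 the first was 0.27, no longer past 0.3, and the second 0.38, still a call. Between Pool 2 and Control, 6.22% of all genes were called and 1.05% had groups without overlap. Such a separation always gives the exact permutation p-value of 0.00794, so that value adds nothing to it. Genes of several cell types were also called higher in Pool 2. Among all genes, 6.82% were called in either direction between Pool 2 and Pool 1. Between Pool 2 and Pool 1, 6 of 8 microglial, 5 of 8 leptomeningeal and 6 of 7 thalamic genes were called higher, with summed levels of 375 to 1098 CPM (375 to 566 CPM without Pool 2 replicate 1) against 377 to 438, of 39.6 to 136 CPM against 26.8 to 76.7 and of 109 to 452 CPM against 94.2 to 108. In the same comparison 3 of 5 blood, 3 of 7 pericyte and smooth muscle, 3 of 10 astrocyte and 1 of 6 endothelial genes were called higher. Of 8 dentate granule cell, 6 CA1 pyramidal cell and 7 oligodendrocyte genes, 0 were called. The part of these cells in the level of Shc1 was not tested. Gab1, a docking protein of the same pathways, fell between Control and Vehicle by 0.33 on the log2 scale (SE 0.14, edgeR p = 0.0283, adjusted p = 0.735, exact permutation p = 0.214), and was not called with only these groups fitted (−0.31). Vehicle replicates 1 and 2 had 54.6 and 54.1 CPM of Gab1, against 31.3 to 35.7 CPM in the other Vehicle libraries. The same 2 libraries had the highest summed levels of 7 oligodendrocyte genes in Vehicle, 5798 and 6001 CPM, against 2923 to 3741 CPM in the others, and the part of these cells in the Gab1 values was not tested.

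Of the 8 measured genes of precursor processing, 1 was called. Serpini1, neuroserpin, was lower in Pool 2 than in Pool 1 (178 ± 42.1 against 224 ± 47.8 CPM, SD, n = 5, log2 fold change −0.34, edgeR p = 0.0426, adjusted p = 0.565, exact permutation p = 0.143). Its groups overlapped, and it was not called without Pool 2 replicate 1.

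Of the 15 measured effectors and partners of p75, Adam17, the protease that sheds the p75 ectodomain, was higher in Pool 2 than in Pool 1 (22.1 ± 5.25 against 17.9 ± 1.96 CPM, SD, n = 5, log2 fold change 0.30, edgeR p = 0.0176, adjusted p = 0.457, exact permutation p = 0.0635). Pool 2 replicate 1, at 31.4 CPM, was the highest of its group, whose lowest library had 19.2 CPM, and without it Adam17 was not called. Bex1 and Bex3, which encode small p75-binding proteins, were higher in Control than in Vehicle, by a log2 fold change of 0.37 (SE 0.14, edgeR p = 0.0140, adjusted p = 0.734, exact permutation p = 0.0635) and 0.33 (SE 0.11, edgeR p = 0.00849, adjusted p = 0.734, exact permutation p = 0.0476). With the length index as a covariate these were 0.25 and 0.20, and neither was called.

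Of the 17 genes that respond to activity or BDNF, Vgf, a neuropeptide precursor induced by BDNF, was the only one called. It was at 167, 127, 101, 104 and 106 CPM in Control replicates 1 to 5 and at 118, 177, 158, 146 and 183 CPM in Pool 1, with a log2 fold change of 0.37 (SE 0.13, edgeR p = 0.00828, adjusted p = 0.917, exact permutation p = 0.0794), while Bdnf itself gave −0.24 in that comparison. Control replicate 1 lay within the range of Pool 1, and the other Control libraries overlapped it only through Control replicate 2 and Pool 1 replicate 1. The Vehicle libraries had 149, 173, 134, 137 and 133 CPM of Vgf, all within the range of Pool 1. Except for Control replicate 1, the Control libraries were below every Vehicle library. The log2 fold change of Control against Vehicle was −0.26, short of the 0.3 required. Of 6 CA1 pyramidal cell genes, 5 had a log2 fold change above 0 between Pool 1 and Control (median 0.29), and 0 were called. Pool 1 replicate 1 had the lowest CA1 sum of its group, 437 CPM, and the lowest Vgf level. Control replicate 1 had the highest of both in its group, with a CA1 sum of 1006 CPM. In Vehicle the CA1 sum was highest in replicate 3, 866 CPM, but Vgf in replicate 2. The part of these cells in the Vgf values was not tested. In Pool 2 against Control, 2 of the 17 genes were above 0 and the median log2 fold change was −0.21, against 0.00 over all genes, with 0 of the 17 called.

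**Figure D5:**
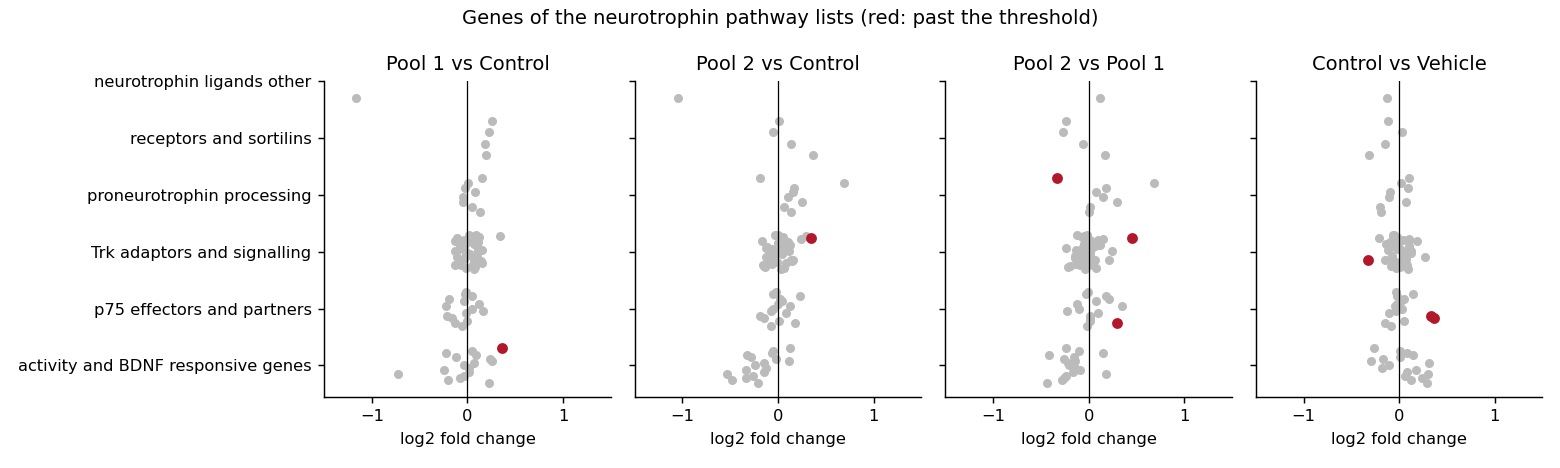
Log2 fold change of the listed pathway genes in the 4 comparisons, by list, with 1 point per gene and genes past the threshold in red. Most genes lie close to 0, and 1 to 3 red points stand in each comparison.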

How the data were processed

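Polyadenylated RNA of the hippocampus of 20 mice was sequenced. The authors made stranded libraries, aligned reads to GRCm38 with STAR, counted them per gene with the annotation of GENCODE release M20 and deposited raw counts, each library summed over its sequencing rounds. Every gene in the table has a total of at least 10 counts. The strand column used for counting is not given in the sources used here.

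Here counts were scaled with TMM factors and fitted in edgeR 4.0.16 (R 4.3.3, glmQLFit and glmQLFTest, robust spread) with the 4 groups as levels, with Benjamini-Hochberg adjustment over 25190 genes. CPM are the counts scaled with TMM factors, and log2 CPM used a prior count of 2. Exon lengths came from release M21, which gives the members the same coordinates, and covered 99.8% of the genes. DESeq2 1.42.0, its size factors, filterByExpr, a mean normalized count of at least 10, the replicate number as a block, the default spread, only the groups compared, 18 libraries without Vehicle replicate 4 and Pool 2 replicate 1, and each library left out were alternatives, and the length covariate was added later. Replicates differed by more than counting noise. The members and lists were chosen with earlier results of these data known. The genes named were the members, Ntf5, the sortilin family, the called pathway genes (at most 6 per comparison, by p-value), and the 3 genes closest to each member by Pearson r. The p-values measure the spread between 5 mice per group. Results for some listed genes are not reported here.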

Additional observations from a re-analysis of the deposited data

Results flagged for a closer look

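Single libraries stood apart from the other 4 of their group (Dixon's criterion at the 95% level) in 9 of 40 groups examined. Chance alone marks about 1 group in 20. For the members these were Bdnf in Pool 1 replicate 5 at 36.6 CPM, Ntf3 in Vehicle replicate 5 at 12.6 CPM and in Pool 2 replicate 1 at 5.90 CPM, Ntrk2 in Vehicle replicate 5 at 458 CPM, and Ngfr in Control replicate 3 at 2.58 CPM and in Pool 2 replicate 4 at 2.80 CPM. Among the related genes they were Ntf5 in Vehicle replicate 4 at 0.921 CPM, Sorcs2 in Pool 2 replicate 1 at 41.1 CPM and Sorcs3 in Pool 2 replicate 5 at 69.1 CPM. Vehicle replicate 5 was marked for both Ntf3 and Ntrk2, in opposite directions.

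In the direct comparison of Pool 2 with Pool 1, 3 of 87 listed genes were called (3.45%, against 6.82% of all genes), with a log2 fold change of 0.45 for Shc1, 0.30 for Adam17 and −0.34 for Serpini1 (edgeR, adjusted p-values of 0.197, 0.457 and 0.565). Without Pool 2 replicate 1, Adam17 and Serpini1 were not called. Of the 5 members, 0 were called.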

How the results depend on the processing

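Of the 5 members, 0 were called in each comparison, and 1 was called under some settings. This was Ntf3 with the replicate number as a block (log2 fold change −0.44 for Pool 1 against Control and 0.44 for Control against Vehicle) and with only the groups compared (Pool 2 against Control, and Control against Vehicle at 0.41). With the length covariate, Bdnf was called in Pool 1 against Control. Leaving out single libraries gave 0 to 1 calls, without Pool 1 replicate 1, Vehicle replicate 5 or Control replicate 5 (Ntf3 −0.46 and 0.46 without the last). The block changed no other call of a member and added Ntf5 in Pool 1 against Control. The replicate numbers did not pair the mice: libraries of the same number correlated with a median r of 0.02 (−0.38 to 0.30) in their deviations, those of different numbers with −0.01, and 3 of 20 libraries were closest to their own number.

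All genes called were 426, 960 and 821 with filterByExpr (Pool 1 and Pool 2 against Control, Control against Vehicle) and 402, 969, 795 and, for Pool 2 against Pool 1, 1133 with genes under a mean normalized count of 10 left out, fewer genes being tested. With single libraries left out they were 717 to 1249, 1129 to 1818, 955 to 1792 and 1190 to 2067. Pathway genes called were 2 for Pool 1 against Control with the replicate block, with 18 libraries or with only the groups compared, 2 for Pool 2 against Control with the last 2 of these settings, and 1 for Pool 2 against Pool 1 with 18 libraries, with only the groups compared or with the length covariate. With single libraries left out they were 1 to 2 for Pool 1 and 1 to 5 for Pool 2 against Control, 1 to 6 between the pools and 1 to 4 for Control against Vehicle. The cause was not tested.

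Small log2 fold changes turned sign. Ngfr was 0.029 for Pool 1 by mean log2 CPM. Ntrk3 was 0.022 (18 libraries) and 0.00108 (mean log2 CPM) for Pool 2 against Control, −0.036 for Pool 1 against Control and 0.11 for Control against Vehicle with the length covariate. Between the pools, Ntf3 was −0.0113 with only these groups and −0.0108 with the covariate, and Ntrk2 was 0.0101 with the covariate. With single libraries left out, Ngfr ranged from −0.24 to 0.35 for Pool 1 against Control, −0.25 to 0.54 for Pool 2 against Control, −0.20 to 0.38 between the pools and −0.58 to 0.13 for Control against Vehicle. Ntrk3 ranged from −0.00615 to 0.29, from −0.18 to 0.11 and, for Control against Vehicle, from −0.23 to 0.053. Between the pools, Ntf3 ranged from −0.13 to 0.19 and Ntrk2 from −0.049 to 0.00706. Ngfr had 17 to 67 counts per library.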
